A study of Mus musculus with 4 samples.

Results

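NMDA receptor subunit genes were followed in fetal mouse brain after maternal ethanol. The receptor is encoded by 7 genes, Grin1, Grin2a, Grin2b, Grin2c, Grin2d, Grin3a and Grin3b, and these were taken as known targets of ethanol by their gene symbols in the platform's probe annotation. A probe set was named for 6 of the 7, with 1 probe set each, among 19938 genes measured, and Grin1 was not analysed here. An expression filter, a mean over the arrays of at least 7.11 on the log2 scale (the median of all probe set means), was passed by 11013 genes. Of the subunit genes, Grin2a, Grin2b, Grin2d and Grin3a passed it, and Grin2c and Grin3b did not.

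All embryos were of strain C57BL/6J and were collected at embryonic day 18. The dams had received either phosphate-buffered saline (PBS) or ethanol by the intragastric route, daily for 5 days between embryonic days 8 and 12; the ethanol dose was 2.9 g per kg per day, given at 15%. Forebrain and hippocampus were each profiled after PBS and after ethanol, which makes 4 groups with 1 Affymetrix array per group. Pooling of embryos and the litters are not in the labels, so a difference between litters or runs and one between treatments cannot be told apart.

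NMDA receptors are glutamate-gated cation channels that open when glutamate binds GluN2 subunits and glycine or D-serine binds GluN1 or GluN3 subunits, and when depolarization has removed a magnesium ion from the pore. GluN1, encoded by Grin1, is the obligatory partner. GluN2B and GluN2D are the GluN2 subunits typical of the fetal brain, GluN2A replaces much of GluN2B after birth, GluN2C is best known from cerebellar granule cells, and GluN3A is a subunit of immature neurons that lowers calcium flux through the channel. Ethanol inhibits these receptors directly, and they are among its best studied targets in the developing brain.

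The bases upstream of an annotated transcription start are shown for a pair of GluN2 genes with unlike readings, Grin2d, which had large differences between arrays, and Grin2c, which lay below the filter. Both come from RefSeq, build GRCm38.p6, on the minus strand, and are the 250 bases before the start, at chr7:45866682-45866931 for Grin2d and chr11:115267244-115267493 for Grin2c. Capitals mark matches on either strand to GGGCGG, a GC box, and to CTCTCT, a pyrimidine run that was chosen after the Grin2d sequence had been seen.

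Grin2d: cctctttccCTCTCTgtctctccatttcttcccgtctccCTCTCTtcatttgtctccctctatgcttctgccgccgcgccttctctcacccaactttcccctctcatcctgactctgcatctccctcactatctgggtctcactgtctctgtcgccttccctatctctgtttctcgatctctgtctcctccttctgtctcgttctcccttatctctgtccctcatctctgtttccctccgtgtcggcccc

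Grin2c: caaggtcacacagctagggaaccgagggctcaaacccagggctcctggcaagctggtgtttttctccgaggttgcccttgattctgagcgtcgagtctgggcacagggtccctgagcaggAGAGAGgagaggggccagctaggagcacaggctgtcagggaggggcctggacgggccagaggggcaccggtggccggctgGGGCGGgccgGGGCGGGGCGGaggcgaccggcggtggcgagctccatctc

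The Grin2d window held 2 matches to CTCTCT and none to GGGCGG, and 82.8% of its bases were C or T, a share reached by 10 of 32851 such windows. It lies inside the annotated span of Grin2d, so other transcripts of the gene start farther upstream. The Grin2c window held 3 matches to GGGCGG and 1 to CTCTCT, and 40.4% of its bases were C or T. Among all windows 32.7% held GGGCGG and 23.4% held CTCTCT. A match is a description of the letters and not a binding site, and no measurement here bears on binding.

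Grin3a and Grin2d were the subunit genes that varied between arrays. Both were lower in hippocampus than in forebrain in each treatment, and both read higher in the ethanol array than in the PBS array of each tissue, although the ethanol difference did not pass the test. Grin2b, Grin2a, Grin2c and Grin3b varied less, and Grin2b hardly at all. Each probe set binds with its own affinity, so levels are compared between arrays and not between genes.

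Grin3a, the gene of GluN3A, read 9.03 on the log2 scale in the forebrain PBS array and 9.37 in the forebrain ethanol array, and 8.28 and 8.82 in the corresponding hippocampus arrays. Both forebrain arrays were above both hippocampus arrays, as for 28.9% of kept genes, and the hippocampus PBS array was the lowest. The ethanol array was 0.53 higher on the log2 scale (1.45-fold) in hippocampus and 0.34 higher (1.27-fold) in forebrain. Differences at least as high were seen for 0.772% of kept genes in hippocampus and 0.254% in forebrain.

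Grin2d, the gene of GluN2D, read 8.44 in the forebrain PBS array and 8.68 in the forebrain ethanol array, and 7.75 and 8.23 in the corresponding hippocampus arrays, in the same order as Grin3a. The ethanol array was 0.47 higher (1.39-fold) in hippocampus and 0.24 higher (1.18-fold) in forebrain. At least as high were 1.17% of kept genes in hippocampus and 0.953% in forebrain. The order shared by this pair, from forebrain ethanol through forebrain PBS and hippocampus ethanol to hippocampus PBS, was held by 7.57% of kept genes. Their ranges over the arrays, 1.08 for Grin3a and 0.93 for Grin2d, were reached by 0.318% and 0.645% of kept genes.

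Grin2b, the gene of GluN2B, read 10.65 in both forebrain arrays, 10.61 in hippocampus after PBS and 10.59 in hippocampus after ethanol. Its range of 0.07 was among the narrowest, since 5.87% of kept genes had one as narrow or narrower. The ethanol difference was -0.03 in hippocampus and -0.01 in forebrain, and its sign turned to 0.07 and 0.01 when arrays were centred on the median of the kept genes. Measured within each array against Grin2b, Grin3a shifted with ethanol by 0.56 in hippocampus and 0.35 in forebrain, and Grin2d by 0.50 and 0.25, so these transcripts differed unequally between the arrays.

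Grin2a, the gene of GluN2A, lay at the filter value, at 7.19 in the forebrain PBS array and 7.30 in the forebrain ethanol array, and 7.09 and 6.97 in the corresponding hippocampus arrays. The ethanol array was lower by -0.12 in hippocampus and higher by 0.11 in forebrain, and 37.1% and 9.06% of kept genes differed at least as far in those directions. Its range of 0.33 was reached by 17.8% of kept genes. Against Grin2b within each array it shifted by -0.10 in hippocampus and 0.12 in forebrain.

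Grin2c and Grin3b read below the filter value in every array. Grin2c read 6.62 and 6.71 in forebrain after PBS and ethanol, and 6.58 and 6.82 in hippocampus. Grin3b, the gene of GluN3B, a subunit best known from motor neurons, read 6.61 and 6.64 in forebrain and 6.61 and 6.75 in hippocampus. The highest reading of each was in the hippocampus ethanol array, 0.24 above the PBS array for Grin2c and 0.14 for Grin3b. Detection calls were not used here, so whether these probe sets were above background is not known.

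**Figure D1:**
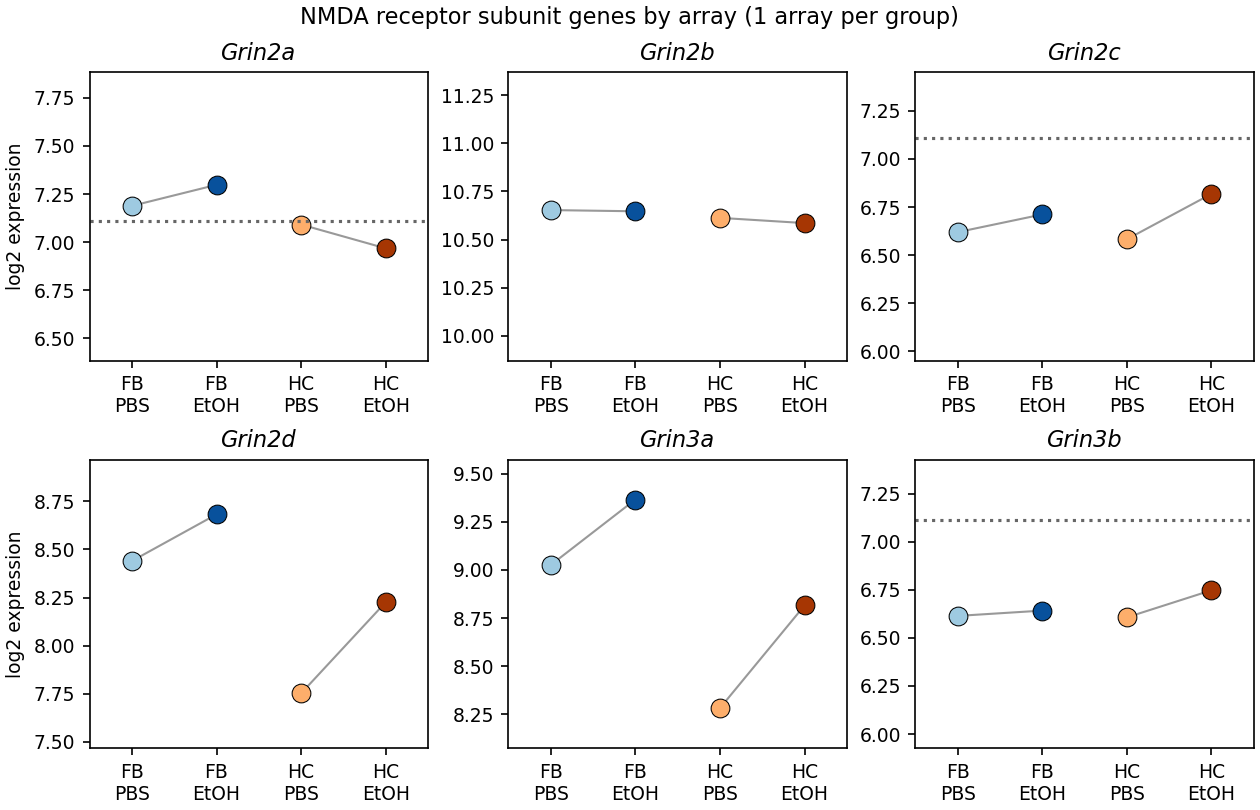
Log2 expression of the 6 measured NMDA receptor subunit genes (vertical axes, each spanning the same height) in the 4 arrays, forebrain (FB) and hippocampus (HC) after PBS or ethanol (EtOH); each point is 1 array, lines join the arrays of a tissue, and the dotted line is the filter value of 7.11. Grin3a runs from 8.28 to 9.37 and Grin2d from 7.75 to 8.68 in the same order of arrays, while Grin2b stays between 10.59 and 10.65.

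The first comparison asked how the subunit genes differ after maternal ethanol in the tissue labelled hippocampus. At 1.5-fold, 0 of the 4 kept subunit genes were higher and 0 were lower, where 0.49% of all kept genes were higher and 0.427% lower. Grin3a came closest to that fold and passed it when arrays were quantile normalized, at 0.61, or centred on the kept genes, at 0.63. Of the 4, Grin3a and Grin2d were higher and Grin2a and Grin2b lower, with a median of 0.22 against -0.08 over all kept genes, of which 30.7% were higher. Each group being 1 array, these differences have no replicate check and no p-value.

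In forebrain, too, 0 of 4 kept subunit genes passed 1.5-fold in either direction, against 0.0454% higher and 0.0272% lower among all kept genes. Grin3a, Grin2d and Grin2a were higher and Grin2b lower, with a median of 0.18 against -0.01 over all kept genes, of which 46.1% were higher. In both tissues Grin3a and Grin2d were higher after ethanol, as were 19.1% of kept genes. The hippocampus differences of these genes exceeded those in forebrain by 0.19 for Grin3a and 0.23 for Grin2d, which was not tested.

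**Figure D2:**
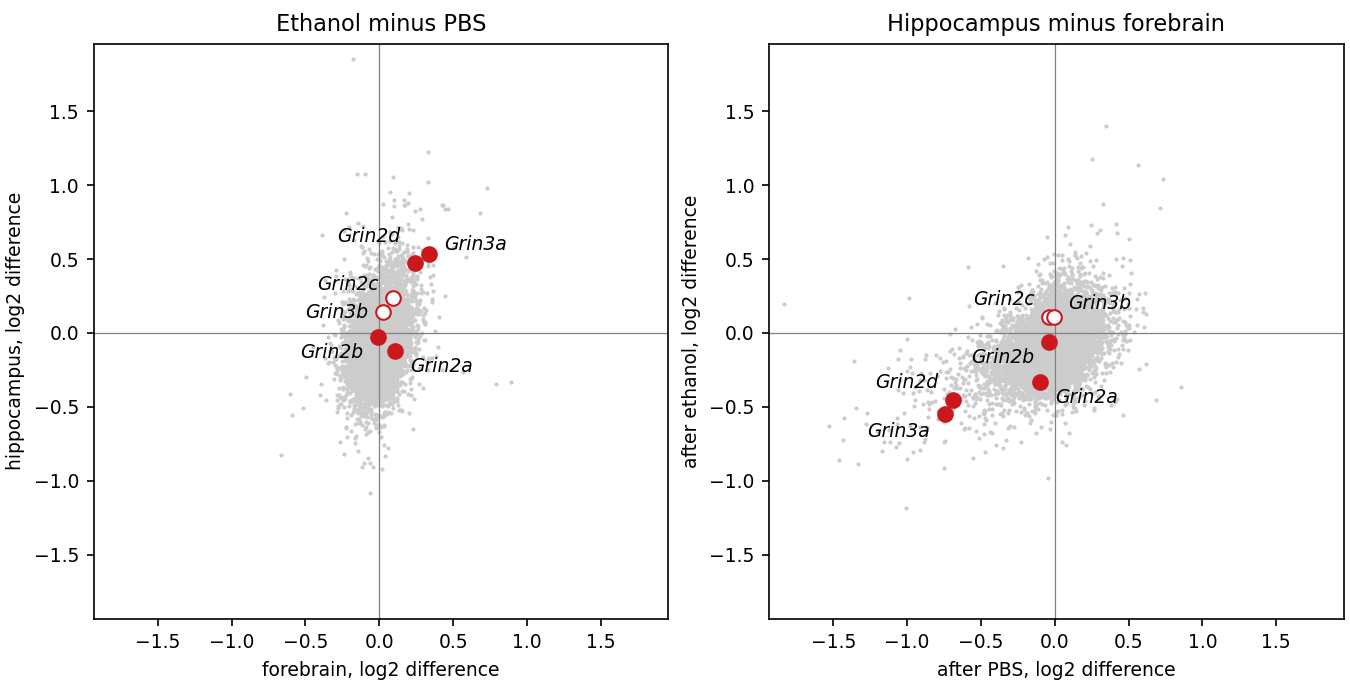
Log2 differences of all 11013 kept genes (grey) and of the subunit genes (red, filled where kept and open where below the filter): ethanol minus PBS in forebrain (horizontal) against hippocampus (vertical) on the left, and hippocampus minus forebrain after PBS (horizontal) against after ethanol (vertical) on the right. Grin3a (0.34 and 0.53) and Grin2d (0.24 and 0.47) lie at the upper right edge of the left cloud and at the lower left of the right one.

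Over both tissues limma was fitted to all kept genes with treatment and tissue as terms. The ethanol difference of Grin3a was 0.44 (SE 0.08, 95% interval 0.24 to 0.63), with an unadjusted limma p of 0.000879 and a Benjamini-Hochberg adjusted p of 0.452, and it was higher in 2 of 2 tissues. For Grin2d limma gave 0.36 (SE 0.09, 95% interval 0.15 to 0.57), with an unadjusted p of 0.00454 and an adjusted p of 0.51. The interval of Grin2b ran from -0.14 to 0.11 and that of Grin2a from -0.23 to 0.21, so changes within these bounds are not excluded. Larger changes could also go uncalled after adjustment, as the differences of Grin3a and Grin2d did. Below the filter, the limma fit to all genes gave 0.16 for Grin2c (adjusted p = 0.655) and 0.08 for Grin3b (adjusted p = 0.804). No subunit gene passed an adjusted p of 0.05, and limma called 0 of the 11013 kept genes (0.0% in each direction). At an unadjusted p of 0.05 it gave 3.41% of kept genes higher and 6.36% lower, with Grin3a and Grin2d among the higher. This fit has 1 residual degree of freedom, and its arrays per treatment are different tissues. The prior variance that limma draws from all kept genes carries 6.53 degrees of freedom, so the p-values rest mostly on that prior and less on how far a gene's own differences disagree between tissues.

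**Figure D3:**
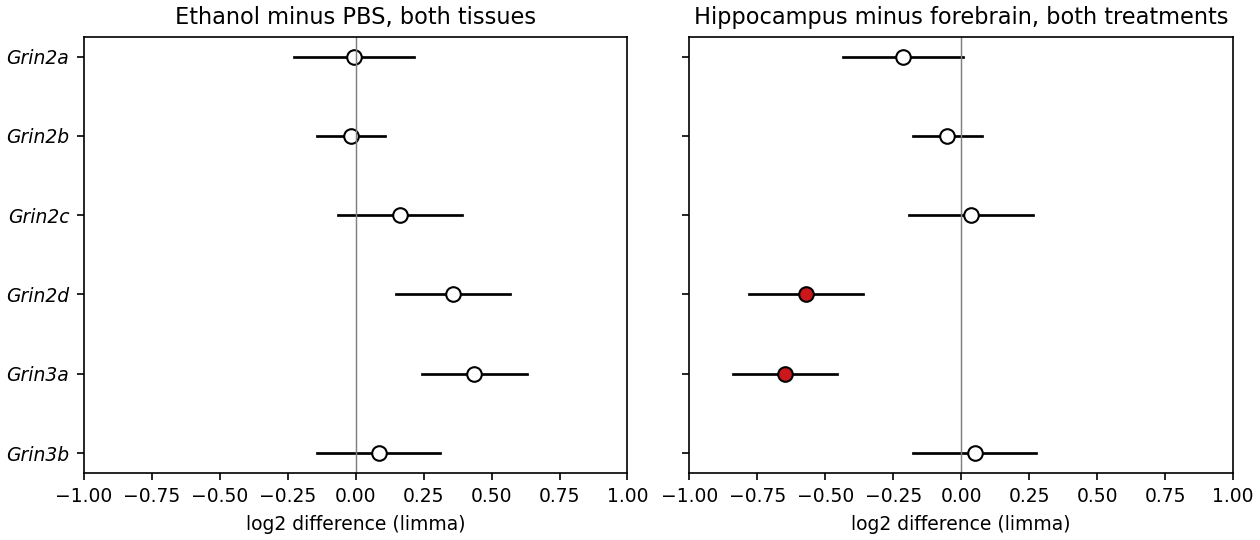
Limma's log2 difference (point) with its 95% interval (line) for each subunit gene over all 4 arrays, for ethanol minus PBS on the left and hippocampus minus forebrain on the right; filled points have an adjusted p under 0.05. The filled points are Grin3a at -0.65 and Grin2d at -0.57 in the tissue comparison, and no ethanol difference is filled.

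The tissues were compared next, to see where the subunit genes are lower or higher in the dissected regions. Grin3a was 9.20 ± 0.24 in forebrain and 8.55 ± 0.38 in hippocampus (mean ± SD, n = 2 arrays of different treatment). Limma gave a difference of -0.65 (SE 0.08, 95% interval -0.84 to -0.46, Benjamini-Hochberg adjusted p = 0.027). Grin2d was 8.56 ± 0.17 in forebrain and 7.99 ± 0.33 in hippocampus, a limma difference of -0.57 (SE 0.09, 95% interval -0.78 to -0.36, adjusted p = 0.0417). Limma called 1.02% of kept genes lower in hippocampus and 0.109% higher, and 2 of 4 subunit genes lower. At an unadjusted limma p of 0.05 the same 2 subunit genes were lower, with 11.9% of kept genes lower and 3.27% higher. Without the trend in the prior variance neither was called, with adjusted p-values of 0.0544 for Grin3a and 0.0663 for Grin2d, and Grin2d was also lost without the expression filter (adjusted p = 0.0715) and with arrays centred on the kept genes (adjusted p = 0.0639).

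All 4 kept subunit genes read lower in hippocampus after PBS, as did 47.5% of kept genes, and after ethanol, as did 69.6%; for Grin2b the second difference, -0.06, turned to 0.03 with arrays centred on the kept genes. The gap between tissues was wider after PBS than after ethanol for Grin3a and Grin2d. After PBS, Grin3a differed by -0.74 and Grin2d by -0.69, both past 1.5-fold, as were 1.19% of kept genes, while 0 of 4 were 1.5-fold higher against 0.0908%. After ethanol the differences were -0.55 and -0.46, and 0 of 4 subunit genes passed 1.5-fold in either direction, against 0.536% of kept genes lower and 0.154% higher. Each of these comparisons shares its hippocampus array with the ethanol comparison in hippocampus, so they are not independent of it.

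The other subunit genes did not pass the test between tissues. Grin2a was 7.24 ± 0.08 in forebrain and 7.03 ± 0.09 in hippocampus (n = 2), with a limma difference of -0.21 (95% interval -0.43 to 0.01, adjusted p = 0.346). It was lower by -0.10 after PBS and by -0.33 after ethanol. Grin2b differed by -0.05 (95% interval -0.18 to 0.07, limma adjusted p = 0.74). Grin2c and Grin3b differed by 0.03 and 0.05 in the limma fit to all genes (adjusted p of 0.925 and 0.886).

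The markers of the tissue labelled hippocampus differed from forebrain in both directions. Of 10 kept markers of hippocampal fields, 5 were higher in hippocampus after PBS, where 47.5% of kept genes were lower, and 6 were higher after ethanol, where 69.6% were lower, with 1 past 1.5-fold (Bcl11b at 0.60) against 0.154% of kept genes. Limma called 0 of them over both treatments. Their medians were 0.00 after PBS and 0.03 after ethanol, against 0.01 and -0.06 over all kept genes. As a list they did not set the tissue labelled hippocampus apart from forebrain, so the tissue differences here are between the labels. At an unadjusted limma p of 0.05, Bcl11b, Meis2 and Zbtb20 were higher and Prox1 lower, 3 and 1 of the 10, against 3.27% and 11.9% of kept genes. Prox1, the transcription factor of dentate granule cells, differed by -0.16 after PBS and -0.33 after ethanol, while Zbtb20, a factor of hippocampal pyramidal neurons, differed by 0.35 and 0.23.

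Markers of several cell types also differed between the hippocampus arrays, where 30.7% of all kept genes were higher after ethanol, against 46.1% in forebrain. Some of these lists had medians of the same sign in both tissues and others did not, and their part in the subunit results was not tested. Astrocyte markers had medians of 0.35 in hippocampus and 0.12 in forebrain. Oligodendrocyte lineage markers were higher after ethanol for 4 of 7 genes in hippocampus (median 0.09) and 6 of 7 in forebrain (median 0.12). Of 11 kept GABAergic interneuron markers, a class of neurons in which Grin2d and Grin3a are known to be expressed, 9 were higher after ethanol in hippocampus (median 0.30), among them Calb2 at 0.87, somatostatin (Sst) at 0.63 and Gad1 at 0.51. The other 2 were lower, the lowest at -0.30. At an unadjusted limma p of 0.05 over both tissues, Calb2 and Gad1 were higher and Lhx6 and Npy lower. These are 2 and 2 of the 11, against 3.41% and 6.36% of kept genes. In forebrain 4 of the 11 were higher (median -0.08), with Sst at -0.17. The log2 of their summed level over 11 measured genes was 12.86 in hippocampus after PBS, 13.11 after ethanol, and 13.09 and 13.03 in forebrain after PBS and ethanol, and none was below the filter value in any array. In hippocampus after ethanol, 11 of 11 striatal projection neuron markers, 7 of 7 astrocyte markers and 6 of 7 meningeal fibroblast markers were higher too, and 8 of 10 markers of excitatory cortical neurons were lower (median -0.56). Of all kept genes 69.3% were lower there, with a median of -0.08, so the count of 8 of 10 alone is near the background. Past 1.5-fold there, 4 of the 10 excitatory markers were lower and 0 higher, against 0.427% and 0.49% of kept genes. At an unadjusted limma p of 0.05 over both tissues, 7 of the 10 were lower and 1 higher, against 6.36% and 3.41%. In forebrain 5 of 7 astrocyte markers were higher, and 4 of 11 striatal and 0 of 7 meningeal ones, against 46.1% of kept genes. There 8 of 10 excitatory markers were lower (median -0.09), against 53.8%. Summed levels on the log2 scale in hippocampus after PBS and ethanol were 12.90 and 13.31 for the striatal list, 12.13 and 12.48 for astrocytes, 10.79 and 11.14 for meningeal fibroblasts and 13.35 and 13.04 for excitatory neurons. In the same order, forebrain had 12.71 and 12.70, 12.50 and 12.58, 11.87 and 11.71, and 13.22 and 13.16. Choroid plexus markers were lower after ethanol in hippocampus for 5 of 5 genes (median -0.26) and higher in forebrain for 4 of 5 (median 0.08). Endothelial markers were higher after ethanol for 2 of 6 genes in hippocampus (median -0.07), which became 5 of 6 with arrays centred on the kept genes, and for 1 of 6 in forebrain. Pan-neuronal markers were higher after ethanol for 6 of 12 genes in hippocampus (median 0.00), or 10 of 12 (median 0.10) with arrays centred on the kept genes, and for 9 of 12 in forebrain (median 0.06).

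Markers also differed, in both directions, in the tissue comparison in which Grin3a and Grin2d were called lower. Of all kept genes 47.5% read lower in hippocampus after PBS and 69.6% after ethanol. Limma called 1.02% lower and 0.109% higher. At an unadjusted limma p of 0.05, 11.9% were lower and 3.27% higher. Meningeal markers were lower in hippocampus for 7 of 7 genes in each treatment, with 3 of 8 measured genes below the filter value there against 1 in forebrain, and limma called 4 of the 7 lower, against 1.02% of kept genes. Endothelial markers were lower for 6 of 6 genes in each treatment. Limma called 0 of them, and 6 were lower at an unadjusted limma p of 0.05, against 11.9% of kept genes. Astrocyte markers were lower for 7 of 7 genes after PBS and 4 of 7 after ethanol, or 6 and 2 with arrays centred on the kept genes, and Gja1, a gap junction gene, was called lower at -0.93 (limma adjusted p = 0.0175). GABAergic interneuron markers were lower for 8 of 11 genes after PBS and 4 of 11 after ethanol, with 0 called. Striatal projection neuron markers were higher in hippocampus for 8 of 11 genes after PBS and 11 of 11 after ethanol. Limma called 2 of these higher, against 0.109% of kept genes, the transcription factor genes Ebf1 at 0.85 (adjusted p = 0.0384) and Foxp1 at 0.55 (adjusted p = 0.0383). Choroid plexus markers were higher for 5 of 5 genes after PBS and 3 of 5 after ethanol, and Ttr, the gene of the thyroid hormone carrier transthyretin, was called higher at 0.42 (limma adjusted p = 0.0417). Summed levels on the log2 scale in forebrain after PBS and ethanol were 12.25 and 12.36 for choroid plexus and 11.11 and 10.99 for endothelial cells, and in hippocampus 12.81 and 12.59, and 10.82 and 10.77. Excitatory cortical neuron markers were lower for 3 of 10 genes after PBS and 9 of 10 after ethanol, and the vesicular glutamate transporter genes Slc17a6 and Slc17a7 were called lower. Among progenitor markers 10 of 13 were higher after PBS and 8 of 13 after ethanol, with 1 called higher, the proliferation gene Mki67, and among oligodendrocyte lineage markers 6 and 5 of 7 were lower, with 1 called lower, Pdgfra. Whether the calls of these marker genes hold under other processing was not examined. The part of these cell types in the subunit results was not tested, and in whole tissue fewer cells of a type and less RNA per cell cannot be told apart.

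The genes whose profile was most like Grin3a were found by the distance between log2 values centred on each gene's mean over the 4 arrays, among 10679 kept genes with established names. For Grin3a they were Nap1l5 (distance 0.11), an imprinted nucleosome assembly gene, Grin2d (0.11), the sodium-calcium exchanger gene Slc24a3 (0.11), the zinc finger gene Zfp941 (0.12) and Unc13c (0.15), a synaptic vesicle priming gene. For Grin2d they were Zfp941 (0.05), Unc13c (0.07), Slc24a3 (0.08), Ptprn (0.09), a phosphatase-like protein of secretory granules, and the imprinted gene Zim1 (0.09), with Grin3a at rank 7. Grin2b was at rank 3452 for Grin3a (distance 0.76) and at rank 3384 for Grin2d (0.65), so most kept genes lay farther away than it did. Grin2a had a flatter profile, with Lpcat4, Lrrc55, Sft2d2, Bend6 and Abca5 each at a distance of 0.02. With 4 arrays such likeness is a description only.

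**Figure D4:**
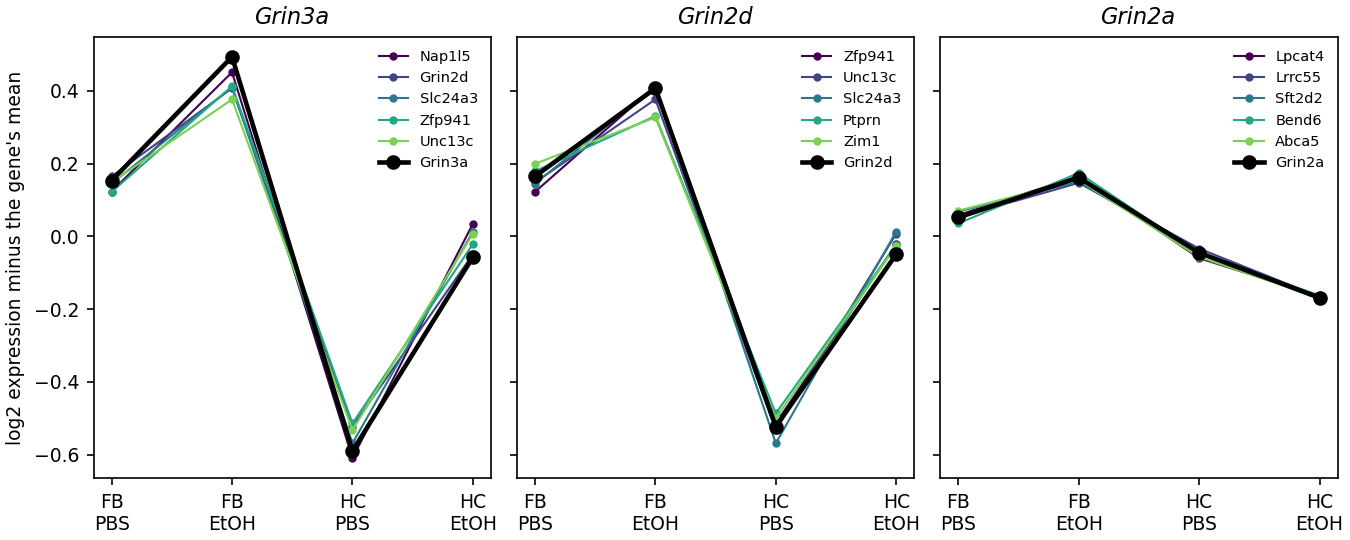
Log2 expression minus each gene's own mean (vertical axis) in the 4 arrays (forebrain FB, hippocampus HC, ethanol EtOH) for Grin3a, Grin2d and Grin2a (black) and the 5 kept genes nearest to each (coloured). Grin3a and Grin2d and their neighbours share a low point in the hippocampus PBS array, whereas Grin2a and its neighbours are lowest in the hippocampus ethanol array.

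Other genes of glutamate signalling were read from lists by function. For ethanol over both tissues limma called 0 genes in each of them after Benjamini-Hochberg adjustment, and counts at an unadjusted limma p of 0.05 are given where they were more than 1 in a direction, to be read against 3.41% of all kept genes higher and 6.36% lower. Of all kept genes 30.7% were higher after ethanol in hippocampus and 46.1% in forebrain. Centring arrays on the kept genes raises every ethanol difference in hippocampus by 0.10 and in forebrain by 0.02, and this turned list medians near 0 in hippocampus to 0.02 for co-agonist genes, 0.06 for scaffold genes, 0.08 for kinase and phosphatase genes and 0.06 for downstream signalling genes. The counts of higher genes in hippocampus moved with it, as given for each list.

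Among ionotropic relatives, 5 of 9 AMPA and kainate receptor subunit genes were higher after ethanol in hippocampus (median 0.10), or 6 with arrays centred on the kept genes, and 5 of 9 in forebrain (median 0.01). Grik1, a kainate receptor subunit gene, read 8.59 and 8.61 in forebrain and 7.79 and 8.32 in hippocampus after PBS and ethanol, so that it was 0.53 higher with ethanol in hippocampus and 0.02 higher in forebrain. Grik3 was lower by -0.23 and -0.09 in those tissues, Gria3 by -0.22 in hippocampus, and Gria4 was higher by 0.11 in forebrain.

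Of 7 kept metabotropic glutamate and delta receptor genes, 6 were higher after ethanol in hippocampus (median 0.22) and 6 in forebrain (median 0.18), or 6 and 7 with arrays centred on the kept genes. At an unadjusted limma p of 0.05, 4 of the 7 were higher, against 3.41% of kept genes. Grm8, a presynaptic receptor gene, read 8.10 and 8.36 in forebrain and 7.56 and 7.94 in hippocampus after PBS and ethanol, and Grm4 was higher by 0.39 in hippocampus and 0.23 in forebrain. Grm2, also presynaptic, was lower by -0.44 in hippocampus.

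Of 19 scaffold genes 7 were higher after ethanol in hippocampus (median -0.04), against 30.7% of kept genes, and 10 in forebrain (median 0.00), against 46.1%. With arrays centred on the kept genes the counts were 11 and 11. Homer1, a postsynaptic adaptor, was at -0.44 and Lrp8, a reelin receptor that couples to NMDA receptors, at -0.21 in hippocampus. In forebrain Homer2 was at 0.20 and Dlg3, the gene of the scaffold SAP102 that binds GluN2 subunits, at -0.16. Neto1, an auxiliary protein of NMDA and kainate receptors, read 10.30 and 10.31 in forebrain and 10.58 and 10.80 in hippocampus, and it was higher in hippocampus by limma's 0.39 (SE 0.07, adjusted p = 0.0497), opposite to Grin3a and Grin2d. Of 16 trafficking genes 9 were higher in hippocampus after ethanol (median 0.01) and 9 in forebrain (median 0.04), or 13 and 10 with arrays centred on the kept genes. The vesicle fusion ATPase gene Nsf was higher with ethanol by 0.40 in hippocampus and lower in hippocampus than in forebrain by limma's -0.46 (SE 0.08, adjusted p = 0.0497). The calls of Neto1 and Nsf lie just under the threshold of 0.05, and whether they hold under other processing was not examined. Lin7a and Lin7b, adaptors of the complex that carries NMDA receptors, were at 0.33 and 0.26 in hippocampus, and Ppp1r9b, the spine protein spinophilin, and Gipc1 were at -0.18 and -0.13 in forebrain.

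Enzymes acting on or after the receptor included some of the widest differences. Of 17 kinase and phosphatase genes 5 were higher after ethanol in hippocampus (median -0.02) and 10 in forebrain (median 0.03). With arrays centred on the kept genes 16 of the 17 were higher in hippocampus and 13 in forebrain, so the direction of this list in hippocampus turned with the scaling. Ptk2b, the calcium-activated tyrosine kinase Pyk2, was at -0.37 in hippocampus, Prkcb, a protein kinase C gene, at 0.31 there and 0.15 in forebrain, Prkca at 0.10 in hippocampus, and Csk, a negative regulator of Src kinases, at -0.13 in forebrain. Of 19 downstream signalling genes 9 were higher in each tissue (medians -0.04 and -0.02), or 14 in hippocampus and 9 in forebrain with arrays centred on the kept genes. Past 1.5-fold in hippocampus were 2 of them, against 0.49% of kept genes, and 3 were higher at an unadjusted limma p of 0.05, against 3.41%. Rasgrp1, a calcium-responsive Ras activator, was at 0.81 in hippocampus and -0.22 in forebrain, Camk2d, a calcium/calmodulin kinase II gene, at 0.71 in hippocampus, and Nos1, the neuronal nitric oxide synthase coupled to the receptor, at -0.48. Rasgrf2, a Ras exchange factor, was at 0.27 in forebrain. Between tissues limma called Adcy8, a calcium-stimulated adenylyl cyclase gene, lower in hippocampus at -0.76 (adjusted p = 0.0209) and Rasgrf2 at -0.55 (adjusted p = 0.0471). These are 2 of the 19, with 0 called higher, against 1.02% of kept genes lower and 0.109% higher. Whether these calls hold under other processing was not examined, and that of Rasgrf2 lies just under 0.05.

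Of 11 genes that supply or clear the co-agonists glycine and D-serine, 9 were lower in the hippocampus ethanol array (median -0.08), where 69.3% of all kept genes were lower, and 5 with arrays centred on the kept genes. In forebrain 6 of 11 were lower (median -0.01). Shmt2, which interconverts serine and glycine, was at -0.33, and Gldc and Amt of the glycine cleavage system at -0.26 and -0.25 in hippocampus. In forebrain Phgdh, the first enzyme of serine synthesis, was at -0.25 and the glycine transporter gene Slc6a9 at 0.18. At an unadjusted limma p of 0.05, 2 of the 11 were lower, against 6.36% of kept genes.

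Of 16 transcriptional regulators linked to subunit genes, 13 were lower after ethanol in hippocampus (median -0.18) and 12 in forebrain (median -0.04), against 69.3% and 53.8% of all kept genes (10 and 9 with arrays centred on the kept genes), and 7 were lower at an unadjusted limma p of 0.05, against 6.36%. Neurod2 and Tbr1, both among those 7, are also in the list of excitatory cortical neuron markers, so these lists are not independent. The neuronal factors Mef2c, Neurod2 and Neurod1 were at -0.64, -0.62 and -0.30 in hippocampus. Rest, a repressor of neuronal genes whose known targets include Grin1 and Grin2b, read 7.64 and 7.36 in forebrain and 7.58 and 7.35 in hippocampus after PBS and ethanol, lower by -0.28 and -0.23. Its limma difference over both tissues was -0.26 (adjusted p = 0.51). Ezh2, a histone methyltransferase gene, was at -0.15 in forebrain.

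**Figure D5:**
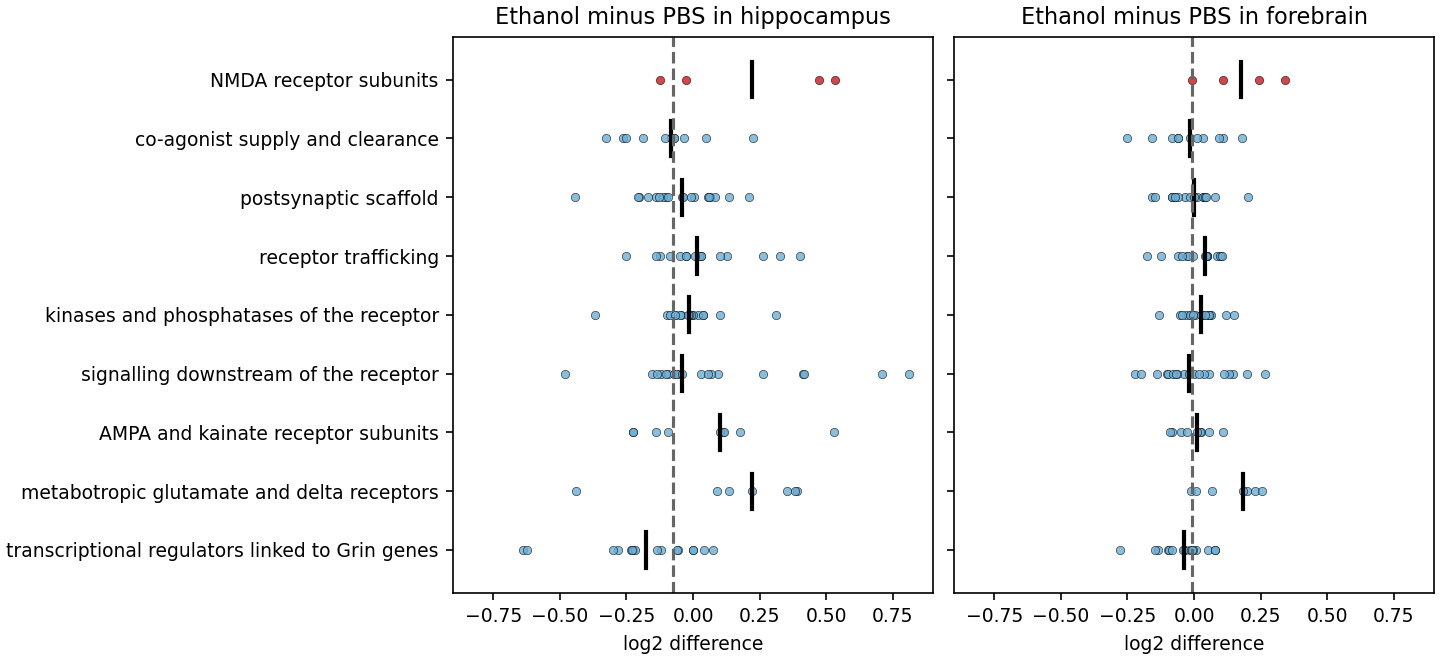
Log2 difference, ethanol minus PBS (horizontal axes), of each kept gene (point) in the NMDA receptor subunit list (red) and the lists of related genes (blue), in hippocampus on the left and forebrain on the right; black bars are list medians and the dashed line is the median of all kept genes (-0.08 and -0.01). The subunit median stands at 0.22 and 0.18 and rests on Grin3a and Grin2d, next to a metabotropic receptor median of 0.22 and 0.18.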

How the data were processed

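RNA of fetal forebrain and hippocampus was measured on 4 Affymetrix arrays, 1 per group, grouped from the sample titles. Extraction was by Trizol, per the labels' protocols. The submitters' processing notes name MAS5, while how the arrays were normalized is not given in the sources used here. Values are the authors' deposited log2 values, a scale read from their range of 1.58 to 13.96, and were used without further scaling. Array medians over 35557 probe sets lay between 7.11 and 7.13; having 1 array a group limits the precision.

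Of these probe sets, 21789 had 1 gene symbol in the platform annotation, 1621 had several and 12147 had none; only the first were named. Each gene was represented by its probe set with the highest mean, and genes with a mean of at least 7.11 were kept. Within tissues, log2 values of 2 arrays were subtracted, with no test. Over all arrays, limma 3.58.1 in R 4.3.3 was fitted (terms for treatment and tissue, eBayes with a trend, Benjamini-Hochberg adjustment at 0.05). The fit was also run on simulated data in which every gene had the same spread and no tissue difference. There it recovered 100% of the 1.5-fold changes and called 16 unchanged genes. The real arrays differ in both respects, so this does not show how many changes the real fit would miss. Promoter windows came from RefSeq, GRCm38.p6. Python 3.11.15 with pandas 2.3.3 did the rest.

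The members and gene lists were chosen with earlier results of these data known. Named were all subunit genes, the 3 genes per list with the widest ethanol difference in hippocampus and the 2 in forebrain, genes called between tissues, and the 5 nearest profiles of 3 subunit genes; others were chosen after their values were seen. Those are Rest in hippocampus, Neto1, Nsf and Adcy8 between tissues, and the marker genes. Alternatives were array centring, quantile normalization, other filters, averaged probe sets, other folds and no trend; centring on the kept genes was added after the data were seen.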

Additional observations from a re-analysis of the deposited data

Results flagged for a closer look

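For some genes named above, the arrays of the tissues or treatments moved in opposite directions. With 1 array per group the difference between the effects was not tested, and 38.5% of kept genes had ethanol differences of opposite sign in the tissues. Among subunit genes, the ethanol difference of Grin2a was -0.12 in hippocampus and 0.11 in forebrain, which are -0.23 apart. The tissue difference of Grin2c was -0.04 after PBS and 0.11 after ethanol (0.14 apart), and that of Grin3b -0.01 and 0.11 (0.11 apart), both from readings below the filter value; the first of these for Grin3b was 0.00 with arrays centred on the kept genes.

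Among related genes, Rasgrp1 was at 0.81 after ethanol in hippocampus and -0.22 in forebrain (1.04 apart), and Prkca at 0.10 and -0.05 (0.14 apart). Lower in hippocampus and higher in forebrain were Mef2c, at -0.64 and 0.01 (-0.65 apart), Grm2, at -0.44 and 0.07 (-0.51 apart), Ptk2b, at -0.37 and 0.12 (-0.49 apart), Homer1, at -0.44 and 0.04 (-0.48 apart), Gldc, at -0.26 and 0.09 (-0.36 apart), and Homer2, at -0.04 and 0.20 (-0.25 apart).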

How the results depend on the processing

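The number of subunit genes past 1.5-fold with ethanol in hippocampus was 1 higher after quantile normalization and 1 with arrays centred on the kept genes, in place of 0. At a lower threshold, a log2 difference of 0.32, it was 2 in hippocampus and 1 in forebrain. Those 1.5-fold lower in hippocampus after PBS fell from 2 to 1 with the 75th percentile filter, which removes Grin2d, and to 0 at 2-fold, and after ethanol 3 were lower at a log2 difference of 0.32 in place of 0. Between tissues limma called 1 subunit gene lower with the 75th percentile filter, 1 without a filter, 1 with arrays centred on the kept genes and 0 without the trend, in place of 2. Adjusted p-values over all settings ran from 0.00279 to 0.0544 for Grin3a and from 0.00917 to 0.0715 for Grin2d between tissues, and from 0.0528 to 0.618 and 0.185 to 0.618 for ethanol. Grin3a and Grin2d kept their direction in every setting that measured them. With 1 probe set each, other filters, averaged probe sets and the missing trend cannot change their differences. Only the rescaled settings could have done so.

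For ethanol over all genes limma called 12 rises and 2 falls once arrays were quantile normalized, 5 and 2 under the 75th percentile filter, and 1 and 1 if kept genes were centred. Between tissues it called 12 genes higher and 112 lower, against 70 and 346 after quantile normalization, 18 and 172 with arrays centred on all probe sets, 21 and 45 with kept genes centred, 4 and 33 without a filter and 2 and 25 without the trend. Genes 1.5-fold apart with ethanol in hippocampus numbered 54 higher and 47 lower, which became 88 and 31 when quantile normalized and 116 and 19 when kept genes were centred. The labels give no replicate numbers, so none was used as a block; the limma fit compares treatments within tissue, with tissue as a term.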
